A study of Saccharomyces cerevisiae with 4 samples.

Results

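The genes described here encode the machinery that destroys messenger RNA in budding yeast: the decapping factors, the Lsm ring, the exonuclease Xrn1, the Ccr4-Not and Pan2-Pan3 deadenylases, the nonsense decay factors, the Ski complex and the RNA exosome. They were chosen by gene symbol from a list of 44, and all 44 were found among the 5897 genes of the deposited table. All 44 reached an FPKM of 1 in 2 or more libraries and were among the 5784 genes tested. FPKM divides a gene's fragments by transcript length and by library depth, so it is a level per length. The deposited lengths are coding lengths, so comparisons of levels between genes are approximate.

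RNA came from the industrial Saccharomyces cerevisiae strain CY, for which the labels name no engineered allele. Cells grew for 10 h in shaken yeast extract and peptone medium, at 30 °C in 2% glucose for the 2 non-stress libraries and at 36 °C in 10% glucose for the 2 stress libraries. Temperature and sugar changed together and cannot be told apart, and the labels do not say whether replicates were separate cultures, so the spread behind the p-values is that between these libraries and may be technical. Estimated depth was 18000000 to 18600000 fragments per library, which gave an estimated 161 to 6976 fragments for a member in a library, and replicate values of a member differed by a median factor of 1.052 (non-stress) and 1.041 (stress). Because FPKM is relative to the library, less of a transcript per cell and more of the other transcripts cannot be told apart.

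Most yeast messenger RNAs are degraded after their poly(A) tail has been shortened, first by Pan2-Pan3 and then by Ccr4-Not. The Lsm1-7 ring and Pat1 bind the shortened end, Dcp2 with Dcp1 removes the cap, and Xrn1 digests the body from the 5′ end. In the other direction the cytoplasmic exosome, fed by the Ski complex, digests from the 3′ end, and the nuclear exosome with Rrp6 also trims precursors of ribosomal, small nuclear and small nucleolar RNA. Nonsense-mediated decay, run by the Upf proteins, sends transcripts with premature stop codons into the same routes.

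Exosome genes fell under stress, while genes of the cytoplasmic 5′ route changed in both directions, a contrast between complexes that was not itself tested. All 12 exosome genes were lower, 10 of them at least 2-fold, and 4 decapping genes, XRN1, LSM2, CDC36 and PAN3 were higher, although XRN1, CDC36 and the decapping gene DHH1 were just below 0 under 1 of the other scalings. Of the 44 genes, 31 (70.5%) were lower and 8 (18.2%) higher at a limma adjusted p under 0.05, against 47.9% lower and 39.8% higher among all genes tested. The remaining 5, EDC3, LSM1, LSM4, SKI3 and SKI7, did not pass. The split was 36 lower and 4 higher when libraries were brought to equal sums without ribosomal protein genes, and 27 and 12 after median centring. At least 2-fold lower were 10 genes (22.7%), close to the 26.9% of all genes, and all 10 belong to the exosome. Only EDC1 was at least 2-fold higher, where 19.0% of all genes were. The groups of libraries did not overlap for 41 of the 44 genes, against 93.8% of all genes. The median log2 fold change was -0.46 for the 44 genes and -0.14 for all genes, and the median size of the change, whatever its sign, was 0.59 and 0.90. The directions of small changes depend on how the libraries are scaled: across the scalings tried the median log2 fold change of all genes ran from -0.57 to 0.09, so changes relative to the median of all genes are given for each complex. Of the 39 genes that passed, 28 kept their call and direction under each of the 12 alternatives, namely the 12 exosome genes, 12 other lower genes and 4 higher genes (EDC1, EDC2, LSM2 and PAN3).

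**Figure D1:**
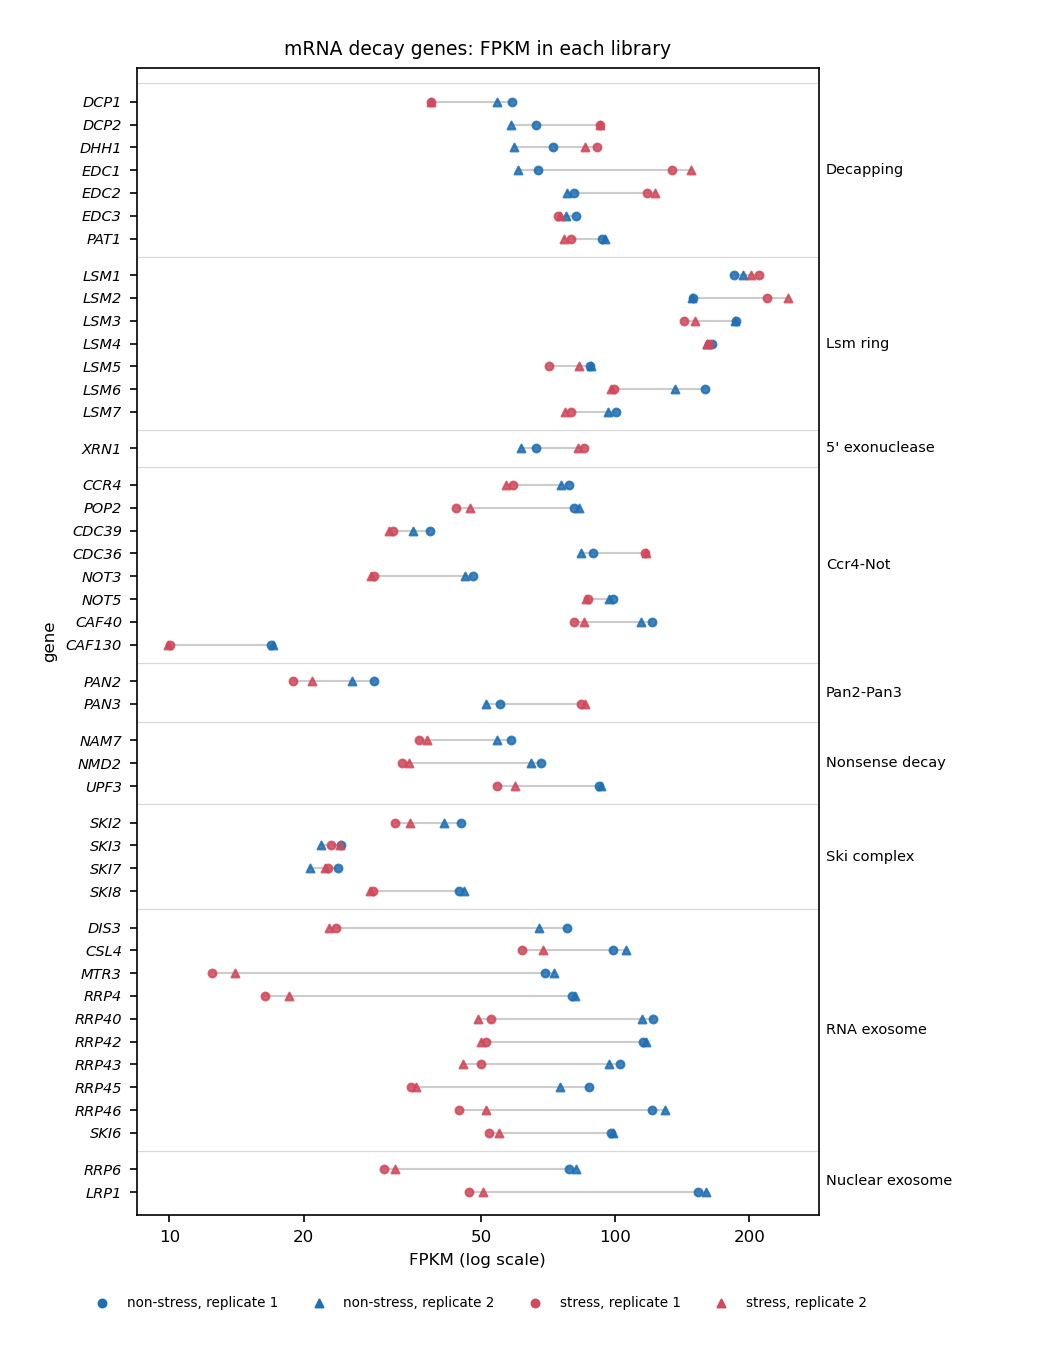
FPKM (log axis) of the 44 genes in each of the 4 libraries, grouped by complex. Blue marks are non-stress and red marks stress libraries, circles replicate 1 and triangles replicate 2; in the exosome the red marks lie left of the blue ones for all 12 genes, while EDC1, EDC2, DCP2, DHH1, LSM2, XRN1, CDC36 and PAN3 show the opposite order.

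The exosome core is a barrel of RNase PH-like proteins under a cap of RNA-binding proteins, with the catalytic subunit Dis3 at its base. The 10 core genes held a summed FPKM of 972 and 960 in the non-stress libraries and of 400 and 411 in the stress libraries, 42.0% of the former level. All 10 fell, 8 of them at least 2-fold, where 47.9% of all genes were lower and 26.9% at least 2-fold lower. The median of their log2 fold changes was -1.19, or -1.05 relative to the median of all genes. Mean levels of the 10 subunit genes lay within 1.76-fold of each other in non-stress libraries (71.3 to 125 FPKM) and spread over 4.93-fold in stress libraries (13.3 to 65.4 FPKM), so subunit genes with similar transcript levels in non-stress libraries had less similar ones under stress.

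Among the 6 barrel genes MTR3 fell most. MTR3 (chromosome VII, 805269 to 806021) was at 69.8 and 72.8 FPKM in the non-stress libraries and at 12.5 and 14.1 in the stress libraries. That is 18.6% of the non-stress level (log2 fold change -2.34 ± 0.080, SE; limma adjusted p = 3.56e-09). RRP46 went from 121 and 129 to 44.6 and 51.4 FPKM (-1.37 ± 0.076, SE). RRP42 (116 and 117 against 51.4 and 50.02 FPKM), RRP45 (87.2 and 75.1 against 34.9 and 35.7) and RRP43 (102 and 96.9 against 50.03 and 45.5) each fell to between 43.5% and 47.9% of the non-stress level. SKI6, which encodes the barrel protein also called Rrp41, fell least of the barrel genes, from 97.6 and 98.98 to 52.2 and 55.01 FPKM (-0.86 ± 0.058, SE; limma adjusted p = 5.34e-07). In each of these 6 genes both stress values lay below both non-stress values, and the gap was wider than the distance between replicates. Groups that do not overlap were seen for 93.8% of all genes.

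The 3 cap genes differed more from each other than the barrel genes other than MTR3. RRP4 (chromosome VIII, 233579 to 234658) fell from 80.2 and 81.5 to 16.4 and 18.5 FPKM, to 21.6% of its level (log2 fold change -2.15 ± 0.076, SE; limma adjusted p = 4.73e-09). RRP40 fell from 121 and 115 to 52.5 and 49.2 FPKM (-1.20 ± 0.062, SE). CSL4, the cap gene with the smallest fall and the highest mean level of the core genes under stress, went from 98.9 and 106 to 61.7 and 68.99 FPKM (-0.64 ± 0.070, SE; limma adjusted p = 1.93e-05). DIS3 (chromosome XV, 282421 to 285426), which encodes the exonuclease and endonuclease of the complex, fell from 78.1 and 67.4 to 23.6 and 22.9 FPKM, a log2 change of -1.60 ± 0.082 (SE; limma adjusted p = 6.84e-08). The cap and catalytic genes showed no overlap between groups, which also holds for 93.8% of all genes.

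Both genes for the nuclear form of the exosome also fell. RRP6, a 3′ exonuclease found on the nuclear exosome, went from 78.9 and 81.5 to 30.4 and 32.05 FPKM (-1.33 ± 0.063, SE; limma adjusted p = 4.02e-08). LRP1, whose protein binds Rrp6 and keeps it stable, had the highest mean level of the 12 exosome genes in non-stress libraries, 153 and 160 FPKM, and was at 46.9 and 50.6 under stress (-1.66 ± 0.062, SE; limma adjusted p = 6.45e-09). Across the 12 alternatives the log2 fold changes of the exosome genes stayed negative and past the threshold; that of MTR3 ran from -2.77 to -2.04 and that of CSL4, the smallest, from -1.08 to -0.45.

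The 300 bases before each start codon were searched for elements known from budding yeast ribosome assembly genes. The R64 sequence of the laboratory strain S288C was used. The letters searched on both strands were GATGAG, the core of the polymerase A and C (PAC) element, and AAAATTTT, the core of the ribosomal RNA processing element. GATGAG was present upstream of 7 of the 12 exosome genes (58.3%), of 5 of the 32 other members (15.6%) and of 19.1% of all 6001 coding genes examined. In EDC1 and SKI3 the match lies in the coding sequence of the neighbouring gene. The 7 matches of the exosome genes are given here with 12 flanking bases on each side, 5′ to 3′ on the strand that reads GATGAG, with the match in capitals, because of the letters searched these were the most frequent upstream of exosome genes.
RRP4 (chrVIII:234760-234789, minus strand): tatggattgagcGATGAGgtgaaaaaaaaa
MTR3 (chrVII:806200-806229, minus strand): tttttttttcacGATGAGatgagatcgcta
LRP1 (chrVIII:267394-267423, plus strand): cagtttttcagcGATGAGctaaggcagatg
DIS3 (chrXV:285530-285559, plus strand): aaatttttctgaGATGAGagaaaatgccta
RRP43 (chrIII:193060-193089, minus strand): gacaaattagacGATGAGtattgttacaca
RRP40 (chrXV:55508-55537, minus strand): cgaaatgctggaGATGAGctgctgaagcat
CSL4 (chrXIV:214810-214839, plus strand): gaattcactgatGATGAGcttatggtacgg

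MTR3 holds another GATGAG that overlaps the one shown, and in DIS3 and RRP40 the match is on the strand opposite to the gene. Counted back from the start codon, the nearest base of the match shown lies at 33 in RRP40 and at 191 in MTR3, the ends of the range. The 7 genes with a match had log2 fold changes of -0.64 (CSL4) to -2.34 (MTR3) and the 5 without one, RRP42, RRP45, RRP46, SKI6 and RRP6, of -0.86 (SKI6) to -1.37 (RRP46), so the ranges overlap. AAAATTTT was found upstream of DIS3, SKI6 and RRP6, 3 of the 12 exosome genes, against 9.42% of all genes and 9.38% of the other members. Of all genes tested, the 1071 with GATGAG had a median log2 fold change of -0.77 and the 4709 without it -0.03. For AAAATTTT the median was -1.44 in the 554 genes with it and -0.04 in the 5226 without it. These shares and medians are descriptions and were not tested, and a match does not show that a factor binds there.

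Of the 7 decapping genes 4 (57.1%) were higher and 2 (28.6%) lower, against 39.8% and 47.9% of all genes, with a median log2 fold change of 0.43 (0.56 relative to the median of all genes). This balance turned to 2 higher and 3 lower when ribosomal protein genes were left out of the totals. The largest rise was that of EDC1 (chromosome VII, 80659 to 81186), a small RNA-binding activator of decapping. Its FPKM was 66.97 and 60.6 in non-stress and 134 and 148 in stress libraries, a 2.21-fold rise (log2 fold change 1.13 ± 0.071, SE; limma adjusted p = 3.15e-07). Its relative EDC2 (chromosome V, 222639 to 223076) rose less, from 80.7 and 78.2 to 118 and 123 FPKM (0.60 ± 0.055, SE; limma adjusted p = 5.77e-06). EDC1 was below EDC2 in both non-stress libraries (ratios of 0.830 and 0.775) and above it in both stress libraries (1.139 and 1.204). Their order in FPKM therefore turned. No 50-base window of either coding sequence occurs in another gene.

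The catalytic subunit and its partner moved in opposite directions. DCP2, which encodes the decapping enzyme, rose from 66.4 and 58.4 to 92.2 and 92.6 FPKM (0.56 ± 0.070, SE; limma adjusted p = 4.90e-05), and DCP1, which encodes its activating partner, fell from 58.6 and 54.4 to 38.6 and 38.6 FPKM (-0.54 ± 0.066, SE; limma adjusted p = 4.28e-05). The ratio of DCP2 to DCP1 was 1.13 and 1.07 in non-stress and 2.39 and 2.40 in stress libraries. DHH1, a DEAD-box helicase that represses translation and aids decapping, rose from 72.5 and 59.1 to 91.3 and 85.4 FPKM (0.43 ± 0.092, SE; limma adjusted p = 0.00186). PAT1, a scaffold that joins the Lsm ring to the decapping enzyme, fell slightly, from 93.3 and 94.9 to 79.7 and 76.9 FPKM (-0.26 ± 0.055, SE), and its call was lost after median centring (adjusted p = 0.275). EDC3, a scaffold of the cytoplasmic granules called P-bodies, did not pass, at 81.8 and 77.7 against 74.3 and 75.2 FPKM (-0.09 ± 0.057, SE; limma adjusted p = 0.157). When libraries were brought to equal sums without the cytosolic ribosomal protein genes, DCP2 no longer passed (log2 fold change 0.12, adjusted p = 0.125), DHH1 stood at -0.01, and EDC3 was called lower (-0.53, adjusted p = 1.24e-05).

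XRN1 (chromosome VII, 175527 to 180113), the main cytoplasmic 5′ exonuclease, was at 66.5 and 61.6 FPKM in non-stress and 85.2 and 82.3 in stress libraries, a rise of 1.31-fold (0.38 ± 0.062, SE; limma adjusted p = 0.0003). Under the scaling without ribosomal protein genes its log2 fold change was -0.05, which did not pass.

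**Figure D2:**
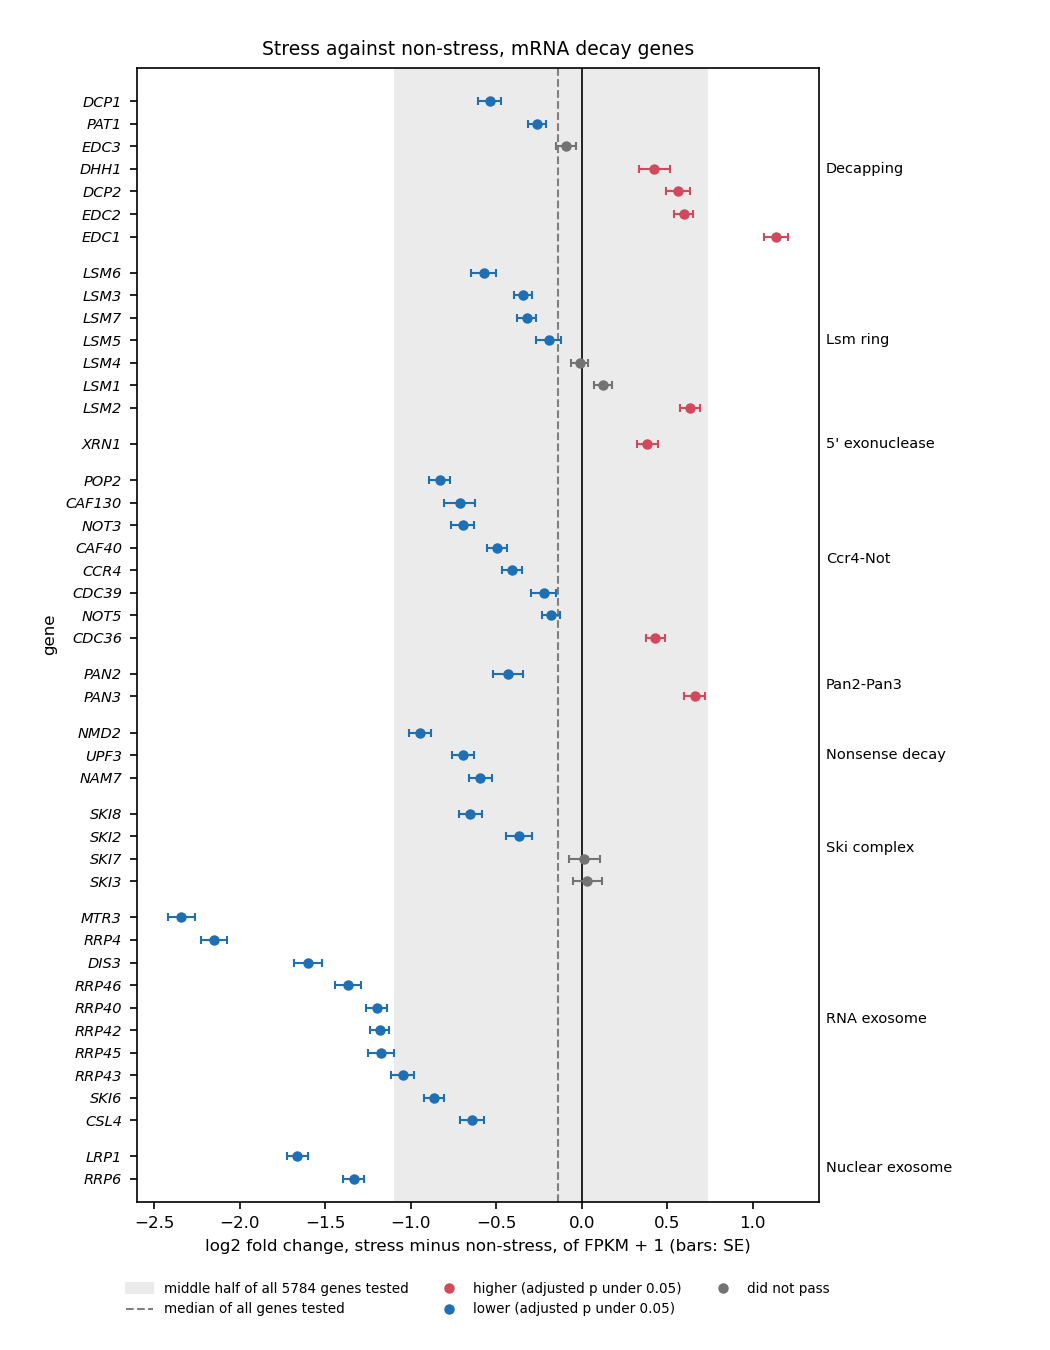
Log2 fold change (stress minus non-stress, of FPKM + 1) of each gene with its standard error, ordered within complexes. The grey band spans the quartiles of all genes tested (-1.09 to 0.73) and the dashed line their median (-0.14); 9 genes lie below the band, all of the exosome, and only EDC1 lies above it.

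The Lsm genes, whose products form a ring on the 3′ end of deadenylated transcripts, held a near constant total: their summed FPKM was 1033 and 1009 in non-stress and 984 and 1015 in stress libraries. Within that total 1 gene (14.3%) rose, 4 (57.1%) fell and 2 did not pass, against 39.8% higher and 47.9% lower among all genes. The median log2 fold change was -0.19 (-0.05 relative to all genes). LSM2 (chromosome II, 170623 to 171038, with 2 coding exons) rose from 149 and 149 to 219 and 244 FPKM (0.63 ± 0.061, SE; limma adjusted p = 7.47e-06). LSM6 fell from 159 and 136 to 99.2 and 98.1 FPKM (-0.57 ± 0.074, SE; limma adjusted p = 6.08e-05). LSM3 (186 and 186 against 143 and 151 FPKM) and LSM7 (101 and 96.1 against 79.7 and 77.2 FPKM) fell by less, with log2 fold changes of -0.34 and -0.32. These 4 genes had groups that did not overlap, which also holds for LSM1, LSM5 and 93.8% of all genes. Each of the 4 kept its call in all 12 alternatives.

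LSM1, the subunit that makes the ring cytoplasmic, was at 185 and 194 against 210 and 202 FPKM and did not pass (0.12 ± 0.053, SE; limma adjusted p = 0.0546). It was called higher after median centring (0.31, adjusted p = 0.00222) and without non-stress replicate 2 (0.16, 0.0251), and lower in the scaling without ribosomal protein genes (-0.32, 0.00027). LSM8, whose protein takes the place of Lsm1 in the nuclear ring on U6 RNA, was far less abundant and fell from 24.5 and 22.1 to 15.8 and 17.6 FPKM (-0.46 ± 0.093, SE; limma adjusted p = 0.00131), a call that was lost after quantile normalization (-0.02, adjusted p = 0.85). The ratio of LSM1 to LSM8 was 7.52 and 8.75 in non-stress and 13.3 and 11.4 in stress libraries. LSM4 did not pass, with overlapping groups of 165 and 160 and 162 and 161 FPKM (-0.01 ± 0.050, SE); it was called higher after median centring (0.18, adjusted p = 0.0122) and lower in the scaling without ribosomal protein genes (-0.45, 1.52e-05). LSM5 was called lower (87.7 and 88.2 against 71.1 and 82.8 FPKM; -0.19 ± 0.075, SE; limma adjusted p = 0.036), but the call was lost without non-stress replicate 1 (adjusted p = 0.126), without non-stress replicate 2 (0.137) and without stress replicate 1 (0.378, log2 fold change -0.09), and also with no filter on low values (0.0884). After quantile normalization its log2 fold change was -0.13 (adjusted p = 0.124), and after median centring it was -0.0045 (0.956). Of its 50-base windows 81.5% lie in YER145C-A, annotated on the other strand and itself listed at 29.44 and 35.25 against 31.64 and 26.98 FPKM, and the labels describe no step that marks strand, so reads of this pair cannot be told apart.

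Ccr4-Not is the main deadenylase of yeast and is built around the scaffold Cdc39, also called Not1. Of its 8 genes in the list 7 (87.5%) fell and 1 (12.5%) rose, against 47.9% and 39.8% of all genes, and 5 were lower after quantile normalization or median centring. The log2 fold change had a median of -0.45 (-0.31 relative to all genes), and their summed FPKM went from 572 and 552 to 458 and 462. POP2, a deadenylase subunit also called Caf1, fell most, from 80.9 and 82.8 to 44.05 and 47.1 FPKM (-0.83 ± 0.062, SE; limma adjusted p = 1.17e-06). CCR4, the other deadenylase, fell by less, from 78.96 and 75.6 to 58.96 and 56.97 FPKM (-0.41 ± 0.059, SE; limma adjusted p = 0.000139). POP2 and CCR4 were at similar levels in the non-stress libraries, with ratios of CCR4 to POP2 of 0.977 and 0.913, and CCR4 was the higher of the pair in both stress libraries, at 1.34 and 1.21.

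The subunit CDC36, also called Not2, was the exception and rose from 89.3 and 83.9 to 117 and 117 FPKM (0.43 ± 0.056, SE; limma adjusted p = 6.97e-05); its log2 fold change was -0.01 under the scaling without ribosomal protein genes. NOT3 fell from 47.9 and 46.02 to 28.8 and 28.4 FPKM (-0.70 ± 0.066, SE), and CAF40, a conserved subunit that binds the scaffold, from 121 and 114 to 80.9 and 85.04 FPKM (-0.50 ± 0.058, SE). CAF130, the least abundant of the 44 genes in both groups, fell from 16.9 and 17.1 to 10.1 and 9.91 FPKM (-0.71 ± 0.091, SE), but did not pass after quantile normalization (log2 fold change -0.18, adjusted p = 0.0578). The falls of NOT5 and CDC39 were small. NOT5 was at 98.9 and 97.1 against 86.9 and 85.9 FPKM (limma adjusted p = 0.011), and its call was lost without stress replicate 1 (0.0615) or stress replicate 2 (0.0829), and after median centring, where it stood at 0.0099 (0.865). CDC39 was at 38.4 and 35.2 against 31.7 and 31.1 FPKM (limma adjusted p = 0.0175), and its call was lost without non-stress replicate 1 (0.0566), stress replicate 1 (0.0898) or stress replicate 2 (0.125), after median centring (-0.03, 0.611) and after quantile normalization (0.04, 0.554). MOT2, the ubiquitin ligase subunit also called Not4, which is not among the 44, fell from 96.6 and 92.03 to 61.1 and 58.8 FPKM (-0.64 ± 0.059, SE; limma adjusted p = 4.99e-06).

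The genes of the Pan2-Pan3 deadenylase went in opposite directions. PAN3, which encodes the regulatory subunit that binds the poly(A)-binding protein, rose from 55.2 and 51.3 to 84.02 and 85.5 FPKM (0.66 ± 0.062, SE; limma adjusted p = 5.77e-06). PAN2, the nuclease, fell from 28.8 and 25.7 to 18.98 and 20.9 FPKM (-0.43 ± 0.089, SE; limma adjusted p = 0.00143), and did not pass after quantile normalization (log2 fold change -0.05, adjusted p = 0.462). The ratio of PAN3 to PAN2 was 1.92 and 2.00 in non-stress and 4.43 and 4.09 in stress libraries.

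All 3 nonsense decay genes fell, where 47.9% of all genes were lower, to a summed FPKM of 59.4% of the non-stress level. Their median was -0.69 on the log2 scale (-0.55 relative to all genes). NMD2 (chromosome VIII, 252374 to 255756, with 2 coding exons), which encodes Upf2, fell from 68.1 and 64.7 to 33.3 and 34.5 FPKM (-0.95 ± 0.064, SE; limma adjusted p = 5.41e-07), the largest fall among the members outside the exosome. UPF3 fell from 91.8 and 93.02 to 54.2 and 59.5 FPKM (-0.69 ± 0.064, SE), and NAM7, which encodes the helicase Upf1, from 58.5 and 54.5 to 36.3 and 37.9 FPKM (-0.59 ± 0.067, SE). None of the 3 had overlapping groups, which also holds for 93.8% of all genes, and the 3 calls held in all 12 alternatives.

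In the Ski complex, which threads transcripts into the cytoplasmic exosome, 2 of 4 genes fell and 2 did not pass. SKI8, a WD-repeat subunit, fell from 44.6 and 45.9 to 28.6 and 28.2 FPKM (-0.65 ± 0.066, SE; limma adjusted p = 1.08e-05). SKI2, the helicase, fell from 45.2 and 41.4 to 32.04 and 34.7 FPKM (-0.37 ± 0.076, SE; limma adjusted p = 0.00144), but not after quantile normalization (adjusted p = 0.109). SKI3, the scaffold, stood at 24.3 and 21.8 against 23.1 and 24.1 FPKM (0.03 ± 0.084, SE; limma adjusted p = 0.714). SKI7, which bridges the complex to the exosome, stood at 23.9 and 20.6 against 22.7 and 22.3 FPKM (0.02 ± 0.090, SE; limma adjusted p = 0.875). For SKI3 and SKI7 the groups overlapped, and their direction and call depended on the scaling. Both were called higher after quantile normalization (0.43, adjusted p = 0.000609, for SKI3 and 0.43, 0.00137, for SKI7) and after median centring (0.22, 0.0114, and 0.21, 0.0258). Both were called lower in the scaling without ribosomal protein genes (-0.39, adjusted p = 0.0016, and -0.41, 0.00197). As a total the Ski genes kept 80.6% of their non-stress FPKM, against 42.0% for the exosome core, a difference between complexes that was not tested.

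**Figure D3:**
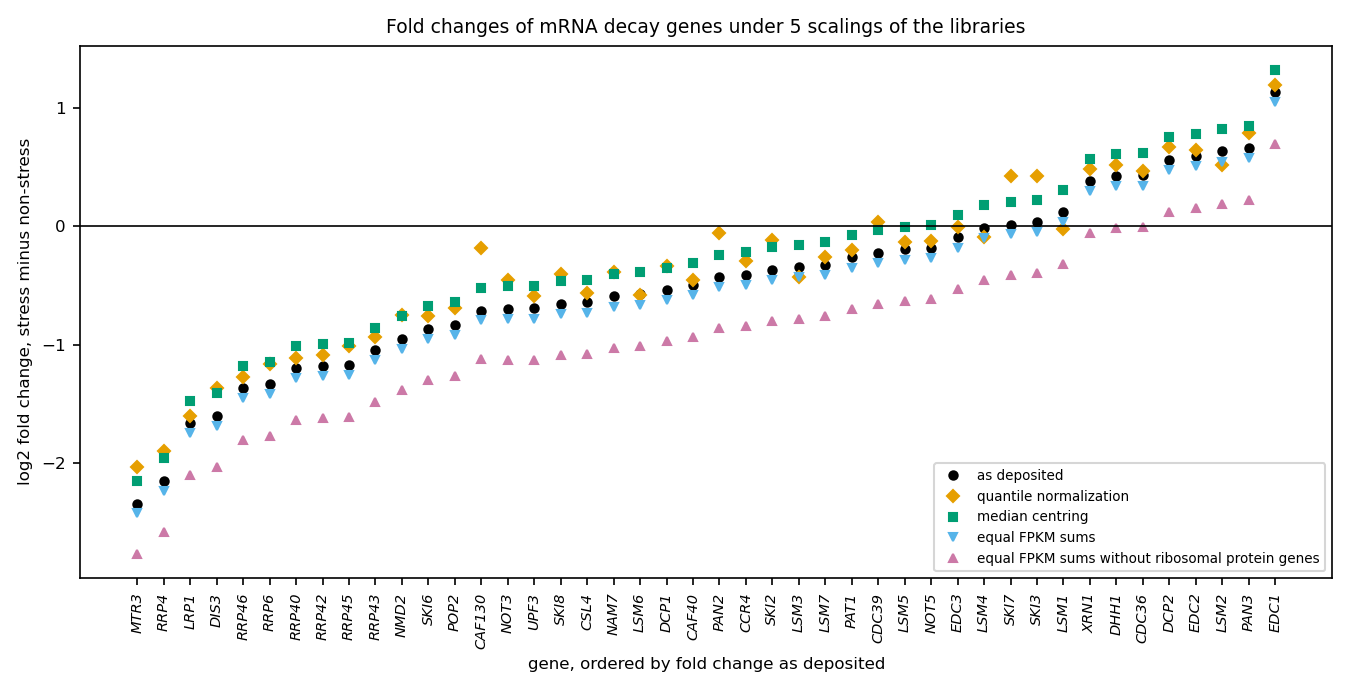
Log2 fold change (stress minus non-stress) of the 44 genes with the FPKM as deposited and after the other ways of scaling the libraries, 5 in all, ordered by the value as deposited. The 12 exosome genes, of which 10 stand first from the left, are below 0 under each scaling, while XRN1, DHH1 and CDC36 drop to just below 0 when ribosomal protein genes are left out of the totals.

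A further list of 34 genes that act beside these complexes was examined for context. Of these, 22 (64.7%) were lower and 9 (26.5%) higher, against the 47.9% and 39.8% of all genes. In the nuclear group, which holds the cofactors of the nuclear exosome and the nuclear 5′ exonuclease, 11 of 13 fell and 2 rose, and the median change was -1.11 on the log2 scale; in the scaling without ribosomal protein genes 12 were lower and 0 higher. MTR4 (chromosome X, 342522 to 345743), the helicase that feeds RNA into the nuclear exosome, fell from 116 and 113 to 11.5 and 12.4 FPKM, to 10.4% of its level (-3.16 ± 0.069, SE; limma adjusted p = 1.88e-10). AIR1, an RNA-binding subunit of the polyadenylating complex that contains Mtr4, fell from 37.8 and 34.05 to 4.27 and 4.21 FPKM (-2.82 ± 0.098, SE), whereas its copy AIR2, chosen after its values were seen, rose from 28.8 and 27.4 to 40.97 and 42.9 FPKM (0.56 ± 0.070, SE), but did not pass in the scaling without ribosomal protein genes (0.13, adjusted p = 0.113). The ratio of AIR2 to AIR1 was 0.761 and 0.806 in non-stress and 9.59 and 10.2 in stress libraries. The copy with the higher FPKM thus changed from AIR1 to AIR2.

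RAT1, the nuclear counterpart of Xrn1, fell from 60.7 and 55.2 to 22.1 and 23.02 FPKM (-1.32 ± 0.074, SE; limma adjusted p = 1.35e-07), and RAI1, which encodes the partner of Rat1, fell from 56.9 and 56.9 to 16.8 and 18.7 FPKM (-1.63 ± 0.076, SE). NRD1, which ends transcription of short non-coding RNAs and hands them to the nuclear exosome, fell from 74.8 and 96.9 to 28.6 and 31.3 FPKM (-1.48 ± 0.11, SE). GATGAG lay upstream of 6 of the 13 nuclear genes (46.2%), against the 19.1% of all genes. AAAATTTT lay upstream of 1 of the 13 (7.69%), below the 9.42% of all genes. The 6 with a GATGAG match had log2 fold changes of -3.16 (MTR4) to -1.08 (MPP6). Those without one ran from -1.48 (NRD1) to 0.56 (AIR2), so the ranges overlap, and the difference was not tested. The matches of MTR4 and AIR1, the 2 largest falls of the group, are shown in the same layout for comparison with those of the exosome core.
MTR4 (chrX:342371-342400, plus strand): tcactttcttgcGATGAGatgcacatagta
AIR1 (chrIX:212058-212087, minus strand): aattagcgatgcGATGAGtgggaaaggtcc

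In the cytoplasmic group 6 of 13 genes (46.2%) fell, 4 (30.8%) rose and 3 did not pass. The shares among all genes were 47.9% lower and 39.8% higher. The balance depended on the scaling: 6 were lower and 7 higher after median centring, and 9 lower and 4 higher without ribosomal protein genes. The 3 that did not pass were called higher in the former and lower in the latter. DCS2 (chromosome XV, 657264 to 658325), which encodes a regulator related to the scavenger decapping enzyme, had the largest change of all genes listed here, from 52.5 and 55.1 to 856 and 846 FPKM, a 15.8-fold rise (3.96 ± 0.051, SE; limma adjusted p = 1.05e-11). DCS1, the scavenger enzyme that removes the cap from the short ends left by the exosome, rose from 101 and 93.7 to 243 and 240 FPKM (1.30 ± 0.056, SE). The ratio of DCS2 to DCS1 was 0.519 and 0.588 in non-stress and 3.53 and 3.52 in stress libraries. PAB1, the poly(A)-binding protein gene, fell from 768 and 756 to 220 and 220 FPKM (-1.79 ± 0.047, SE; limma adjusted p = 6.36e-10), and PUB1, a poly(A) RNA-binding protein that stabilizes transcripts, from 359 and 361 to 146 and 143 FPKM (-1.31 ± 0.049, SE).

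The letters AGGGG, the stress response element bound in budding yeast by Msn2 and Msn4, were also searched on both strands. They occurred upstream of 9 of the 44 genes (20.5%) and of 22.2% of all genes, a lower share. Of the 9, EDC2 and PAN3 rose, PAT1, LSM3, CDC39, NMD2 and DIS3 fell, and LSM1 and SKI3 did not pass. The match of SKI3 lies in the coding sequence of the neighbouring gene MLC2. Among all genes tested, 55.6% of the 1308 with AGGGG were higher and 33.6% lower. For the 4472 without it 35.1% were higher and 52.1% lower, a difference that was not tested. Of the 34 related genes 6 had a match, of which DCS2, SBP1, JSN1 and PUF2 rose, EBS1 fell and PBP1 did not pass. Among the 4 higher decapping genes only EDC2 had a match, on the strand opposite to the gene, and one of its 2 matches lies in the coding sequence of the neighbouring gene. PAN3 had 1 match and DCS2 had 2. Matches of EDC2, PAN3 and DCS2, which rose, and of DIS3 and NMD2, which fell, are shown because the letters stood upstream of genes of either direction, with the 5 letters in capitals.
EDC2 (chrV:222433-222461, minus strand): aagaagaaaaaaAGGGGcgctgataatct
PAN3 (chrXI:392411-392439, plus strand): ggtctgatatgtAGGGGagggcatataat
DCS2 (chrXV:657104-657132, plus strand): aggggggaaataAGGGGtgacaataccaa
NMD2 (chrVIII:256025-256053, minus strand): tatgatattgttAGGGGgttatattgaat
DIS3 (chrXV:285601-285629, minus strand): taacttttaattAGGGGtttattcttgat

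Of the 8 sequence-specific RNA-binding genes examined, 5 fell and 3 rose, against the 47.9% and 39.8% of all genes. After quantile normalization 3 were lower, as CTH1 (0.09, limma adjusted p = 0.177) and VTS1 (0.02, 0.836) lost their calls. CTH1 also lost its call after median centring (-0.03, limma adjusted p = 0.61). The same held for CTH1 without non-stress replicate 1 (-0.17), stress replicate 1 (-0.21) or stress replicate 2 (-0.23). The 3 that rose encode Puf proteins and were named after their values were seen: PUF3, whose protein binds transcripts of mitochondrial proteins, was at 30.98 and 25.9 against 53.5 and 51.4 FPKM (0.86), PUF2 at 24.4 and 21.7 against 47.1 and 45.6 (0.98) and JSN1, also called Puf1, at 95.96 and 86.05 against 107 and 109 (0.25). JSN1 was called lower in the scaling without ribosomal protein genes (-0.19, adjusted p = 0.0193). PUF4 and MPT5, of the same family, fell, with log2 fold changes of -0.52 and -0.80.

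**Figure D4:**
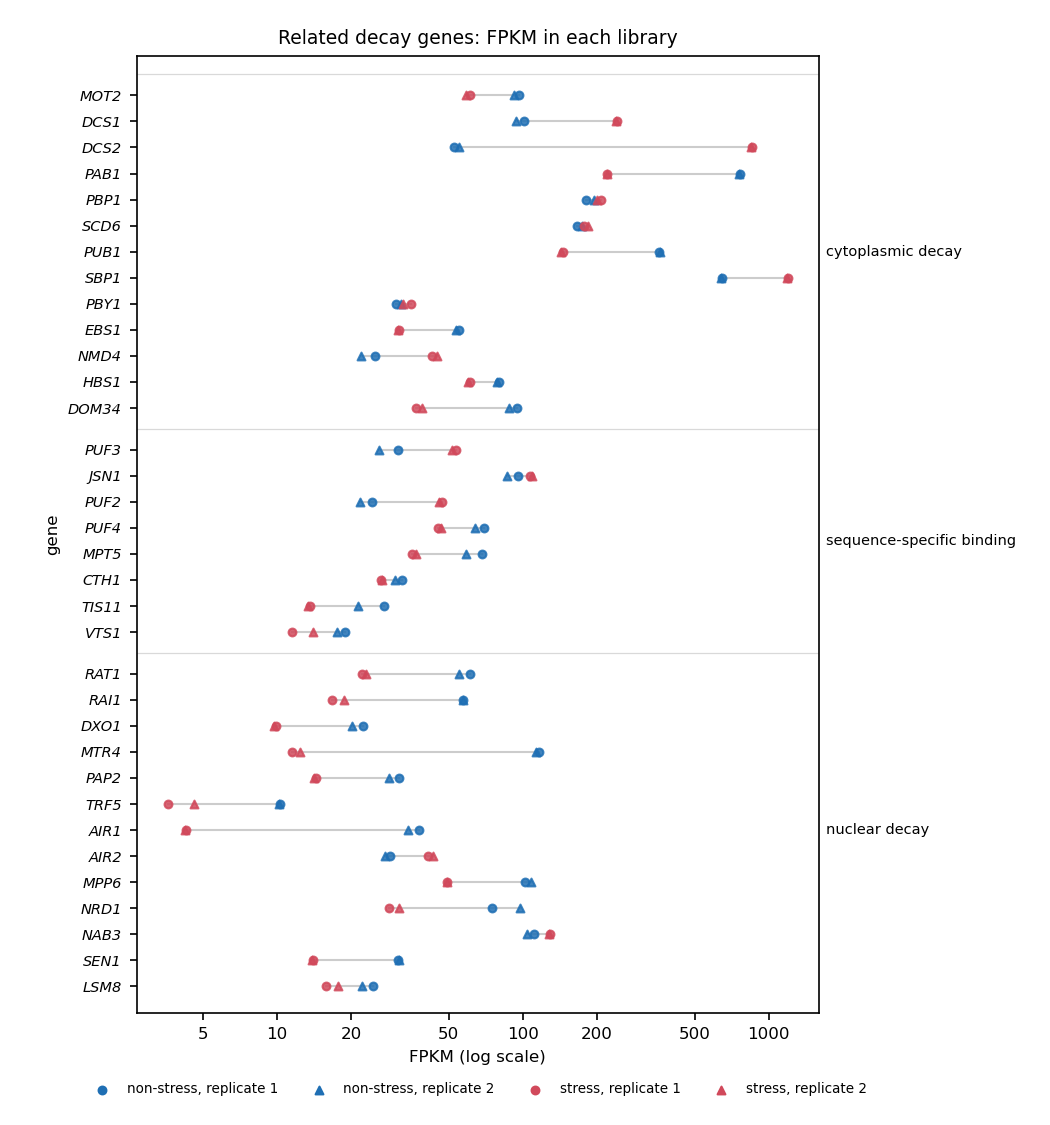
FPKM (log axis) of the 34 related genes in each of the 4 libraries, in 3 groups, with blue marks for non-stress and red marks for stress libraries. DCS2 moves far to the right under stress, MTR4 and AIR1 far to the left, and in the nuclear group only AIR2 and NAB3 are higher under stress with the FPKM as deposited (NAB3 stood at -0.19 in the scaling without ribosomal protein genes).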

How the data were processed

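FPKM values for 2 non-stress and 2 stress libraries were deposited by the authors in 1 table, per the file headers. Build R64 and the tools RSEM 1.2.8, Bowtie2 2.2.5 and HISAT2 2.1.0 are named in the submitters' processing notes, without roles; read filters and strand settings are not given in the sources used here. The deposited transcript lengths are coding lengths (98.8% are multiples of 3). RSEM is known to share ambiguous reads by an estimate; LSM5 was the only member with 50-base windows shared with another coding sequence.

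Groups follow the labels. Stress was compared with non-stress by limma 3.58.1 in R 4.3.3 (eBayes with a trend, two-sided, 2 residual and 6.51 prior degrees of freedom) on log2(FPKM + 1), a pseudocount of 1, over the 5784 genes that reached an FPKM of 1 in 2 or more libraries. P-values were Benjamini-Hochberg adjusted over all of these, with a threshold of 0.05. Fold changes are on this log2 scale, which understates changes of low genes, and the median standard error was 0.0696. The fit was also run on simulated data with far fewer changed genes than here, where 87.7% of genes passed. That run therefore does not show how the fit performs on these data. Alternatives were 4 other scalings (quantile normalization, median centring, equal FPKM sums with and without cytosolic ribosomal protein genes), testing with the low-value filter dropped or raised to 5 FPKM, adding 0.1 in place of 1 before the log, blocking on replicate number, and omitting each library in turn.

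Depth was estimated from low FPKM values: 86.4% to 93.9% of the 66 to 80 values worth under 8 fragments were whole to within 0.1, where chance gives 20% before the best depth and length offset (36 or 37 bases) are chosen. Tests that need counts were not run. Coordinates are 1-based; those of all 44 genes were identical in the table and in the RefSeq R64 annotation, from which all sequences were read. Upstream matches were counted in the 300 bases before the start codon, on both strands, without a test; these windows can reach into neighbouring genes.

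All members are named. Of the related genes, the rule took the 8 that changed most (adjusted p under the threshold, groups that do not overlap, mean FPKM of 20 or more) and 7 in any case. The members and lists were chosen with earlier results of these data known. Python 3.11.15, pandas 2.3.3, numpy 2.4.6 and matplotlib 3.10.9 were used.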

Additional observations from a re-analysis of the deposited data

How the results depend on the processing

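Counts of members moved little under most of the 12 alternatives, and the 12 exosome genes were lower in each. With the FPKM as deposited 8 members were higher and 31 lower. Bringing libraries to equal sums without the 137 ribosomal protein genes gave 4 higher and 36 lower members, and among all genes 1606 higher and 3574 lower in place of 2300 and 2771; median centring gave 12 and 27 members. Quantile normalization gave 10 and 26. In the scaling without ribosomal protein genes the log2 fold change turned sign for DHH1 (-0.012), XRN1 (-0.054), CDC36 (-0.0084), LSM1 (-0.32), SKI3 (-0.39) and SKI7 (-0.41). It turned for LSM1 (-0.025) and CDC39 (0.037) after quantile normalization, for EDC3 (0.097), LSM4 (0.18) and NOT5 (0.0099) after median centring, and for SKI3 (-0.050) and SKI7 (-0.068) with equal FPKM sums. With 1 library left out, LSM4 ran from -0.034 (without non-stress replicate 2) to 0.0097 (without non-stress replicate 1), and between the same omissions SKI3 ran from -0.039 to 0.11 and SKI7 from -0.086 to 0.12; the number of members lower ran from 28 to 31 and the number higher from 8 to 9. The cause was not tested. Of 528 member values under alternatives, 485 kept their direction and their side of the threshold, 22 lost the call, 14 gained one and 7 changed sign without passing in either; 0 passed in opposite directions.

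The labels do not say whether same-numbered libraries share a culture or day. The correlation of their deviations from the group means was -0.0050, which with 2 libraries a group cannot decide this. With the replicate number as a block, 8 members were higher and 31 lower, as without it. MTR3 had the fewest estimated fragments in a library, 161, and with 2 libraries a group the spread itself is poorly known.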
